A study of Saccharomyces cerevisiae with 61 samples.

Results

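The regions described here are Top1 peaks of meiotic budding yeast that share no base with any Top2 peak, called Top1-only peaks below. They were chosen by the called positions themselves, that is, by setting the deposited Top1 peak list against the deposited Top2 peak list on the 12 chromosomes other than I, III, VI and XII. Of 1924 Top1 peaks on these chromosomes, 375 were Top1-only (19.5%), and the other 1549 overlapped at least 1 of the 2370 Top2 peaks there. In turn, 34.0% of those Top2 peaks shared no base with a Top1 peak. The full Top1 list held 2234 peaks on 16 chromosomes. The term speaks of the lists alone: a Top1-only peak is a place where no Top2 interval was called, which does not show that Top2 was absent.

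Both lists come from SK1, a yeast strain known for efficient sporulation, with cells collected 3 h after transfer to sporulation medium at 30 °C. Top1 was precipitated with an anti-Myc antibody from a strain with the allele TOP1-13MYC, so it was seen only through its tag. Top2 was precipitated with an anti-Top2 antibody from a wild-type strain (WT) without a tagged topoisomerase, so the lists differ in strain and antibody. Each list combines 2 replicates of ChIP with their own inputs and carries no replicate error. No difference below therefore has a replicate check, and none was tested. The Myc ChIP of the untagged WT was not used here, so the part of Top1-only peaks that the anti-Myc antibody would give without the tag was not tested.

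Topoisomerases release the twist that builds up in DNA when it is transcribed, copied or packed. Top1 is the eukaryotic type IB enzyme: it nicks a single strand, lets the helix swivel and seals it again, and it works on the supercoils that form ahead of and behind RNA polymerase. Top2 is a type II enzyme: it cuts both strands and passes another duplex through, so it relaxes supercoils and also separates tangled and linked DNA. In yeast both enzymes can relax supercoils, and Top2 is needed for unlinking sister chromosomes. The comparison asks where Top1 enrichment was called on meiotic chromosomes with no called Top2 enrichment beside it, and how those places differ from the shared ones.

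Top1-only peaks were found on all 12 chromosomes, from 14 on IX to 49 each on IV and XV. Their share of a chromosome's Top1 peaks was highest on VIII, where 31 of 103 peaks were Top1-only (30.1%, 95% exact Clopper-Pearson interval 21.5% to 39.9%). It was lowest on XVI, with 29 of 192 (15.1%, interval 10.4% to 21.0%). Only the interval of VIII lay wholly above the 19.5% of the 12 chromosomes together, and the intervals of VIII and XVI did not overlap. The intervals cover counting error only and treat neighbouring peaks as independent. Per 100 kb of chromosome, VIII held 5.97 Top1-only peaks and XIV held 2.79, while all Top1 peaks ranged from 17.3 on X to 21.3 on XV. Chromosome length and the share were weakly related across the 12 chromosomes (Pearson's r = -0.33, Spearman's rho = -0.31), a description of points that share both libraries.

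**Figure D1:**
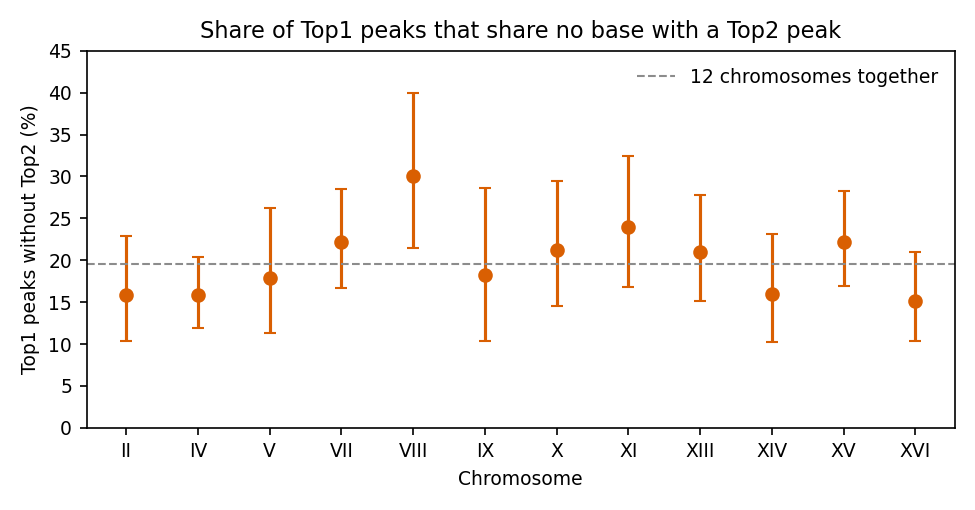
Percent of Top1 peaks that share no base with a Top2 peak (vertical axis) on each of the 12 chromosomes (horizontal axis), with 95% exact binomial intervals as bars and the value of the 12 chromosomes together (19.5%) as a dashed line. Chromosome VIII stands highest at 30.1% and XVI lowest at 15.1%.

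Top1-only peaks were narrower at the median than Top1 peaks that overlapped Top2. Their median width was 347 bases (quartiles 263 and 488.5, range 200 to 1987), against 521 bases (quartiles 307 and 1085, range 200 to 5793) for Top1 peaks that overlapped Top2. Widths under 300 bases made up 35.5% of the Top1-only set and 23.8% of the overlapping set. Of the 502 Top1 peaks that narrow, 133 were Top1-only, so most overlapped Top2, as did 80.5% of all Top1 peaks. The median was lower for Top1-only peaks on 12 of 12 chromosomes. Peaks over 1000 bases made up 4% of the Top1-only set, 15 peaks in all, and 28.0% of the overlapping set. In bases, the 375 peaks covered 159 kb, which was 11.1% of all Top1 peak sequence and 1.60% of the length of the 12 chromosomes.

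Width takes part in the choice of these peaks, since a wide interval meets a Top2 peak more easily, so the difference in width is a description. Across quartiles of width, Top1-only peaks made up 26.2% of peaks from 200 to 293 bases and 29.7% from 294 to 458. They made up 17.9% from 459 to 937 and 4.16% from 939 upward. The lowest quartile (127 of 485) and the second (142 of 478) were close, and no interval was computed for these shares. The widest Top1-only peak lay on chromosome XIII at 81321 to 83307, 1987 bases wide with a fold enrichment of 1.23. The next widest were at 771206 to 773088 on XV (1883 bases, fold enrichment 1.22) and at 127708 to 129524 on VIII (1817 bases, fold enrichment 1.38). All 3 sat below 1.4-fold, a level that only 67 of all 375 Top1-only peaks (17.9%) reached. Of the overlapping peaks, 119 were wider than any of them.

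Top1 enrichment in Top1-only peaks was modest and mostly lay within the range of the other Top1 peaks. The authors' fold enrichment of ChIP over input had a median of 1.29 (quartiles 1.24 and 1.36, range 1.07 to 1.62) in Top1-only peaks and 1.33 (quartiles 1.27 and 1.42, range 1.13 to 2.42) in overlapping ones. The median was lower in Top1-only peaks on 12 of 12 chromosomes, although on XVI the medians were close, at 1.32 and 1.33. The difference in medians was -0.046. Against Top2 peaks of at least 1.5-fold only, it was -0.060 (interval of the Top1-only median -0.067 to -0.051). It was -0.012 (interval -0.032 to 0.0060) among Top1 peaks of at least 1.3-fold. With a −log10 q-value of at least 3 in both lists it was -0.016 (interval -0.029 to 0.0012). These 95% intervals come from the ranks of the values and cover the spread among peaks only. The cut at 1.3-fold lies above the Top1-only median and trims the values compared, so the medians draw closer by construction. The q-value cut also acts on the Top1 list. Only 49 overlapping peaks (3.16%) had a fold enrichment above the highest Top1-only peak. The median −log10 q-value was 3.20 against 4.74, and 23.7% of Top1-only peaks had a −log10 q-value under 2, against 11.5% of overlapping peaks.

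Sorted by fold enrichment, and cut into 5 equal bins, the weakest Top1 peaks were 30.1% Top1-only and the strongest 13.2%, with 24.2%, 16.4% and 13.5% between them in order. Top1-only peaks occurred in each of the 5 bins, and 51 of the 385 strongest Top1 peaks shared no base with Top2. Within width quartiles the gap in median fold enrichment was not uniform. It was 1.29 in both sets among the narrowest peaks, 1.29 against 1.33 in the second quartile, 1.26 against 1.34 in the third and 1.33 against 1.37 among the widest, where only 20 were Top1-only. Width and fold enrichment went together in overlapping peaks (Spearman's rho = 0.32 over 1549 peaks) and not visibly in Top1-only peaks (rho = -0.036 over 375), both computed within 1 list. The widths spanned differ, with 28.0% of overlapping and 4% of Top1-only peaks over 1000 bases. The 2 values were not compared over a common range of width. A Top1-only peak was weaker than both of its Top1 neighbours along the chromosome in 39.1% of 366 cases and stronger than both in 25.1%. For overlapping peaks these shares were 31.7% and 35.1% of 1534.

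**Figure D2:**
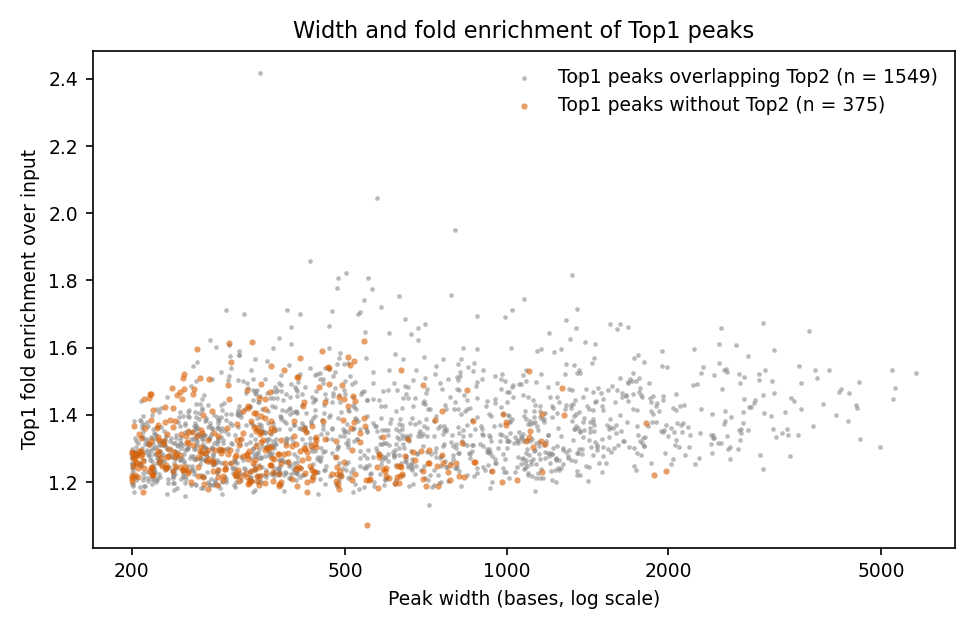
Width in bases (horizontal axis, log scale) and Top1 fold enrichment over input (vertical axis) of each Top1 peak on the 12 chromosomes, with 375 Top1-only peaks in orange and 1549 overlapping peaks in grey. Grey and orange points mix throughout, and the orange ones end at a fold enrichment of 1.62 and a width of 1987 bases.

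The 5 strongest Top1-only peaks were 265 to 543 bases wide. The first, on chromosome VIII at 64629 to 65171, had a fold enrichment of 1.62 and lay 268 bases from a Top2 peak of only 1.19-fold. The second, on VII at 329883 to 330217 (1.62-fold), lay 1775 bases from a Top2 peak of 2.18-fold. The third, on XV at 44351 to 44653 (1.61-fold), was 2161 bases from its nearest Top2 peak. The neighbourhoods of these peaks thus differed, from a weak Top2 peak close by to a strong one farther off. The remaining pair, on XVI at 209795 to 210059 (1.60-fold) and on XV at 680591 to 681043 (1.59-fold), lay 2114 and 1914 bases from Top2. Positions are counted from 1 on the SK1 assembly of the deposited lists (Yue), and the genes at these places were not analysed here.

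Most Top1-only peaks were not near misses of the overlap rule. The median gap to the nearest Top2 peak, counted in bases between the interval edges, was 1775 (quartiles 1101.5 and 2636, range 96 to 11544). Only 14 of the 375 (3.73%) lay within 500 bases of a Top2 peak and 59 (15.7%) within 1000, while 218 (58.1%) lay within 2000 and 361 (96.3%) within 5000. For scale, the median gap between a Top2 peak and the nearest other Top2 peak was 1756.5 bases, and that between a Top1-only peak and the nearest other Top1 peak was 2064.

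The peaks on either side of the overlap rule's threshold had these values. The nearest Top1-only peaks were at 361870 to 362516 on chromosome XIV, 96 bases from Top2 with a fold enrichment of 1.28, at 228096 to 228378 on II, 110 bases away with 1.26, and at 716223 to 716919 on XV, 129 bases away with 1.21. Just across it, the Top1 peak at 641439 to 642411 on VII shared 2 bases with a Top2 peak (1.37-fold), and those on IV at 820991 to 821921 (1.18-fold) and at 1047427 to 1047806 (1.52-fold) shared 9 bases each.

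The gap to Top2 is bounded in part by how each list was built. No 2 peaks of the Top1 list lay closer than 802 bases, and none of the Top2 list closer than 804. Of the 375 Top1-only peaks, 242 (64.5%) had as nearest Top2 peak one that overlapped another Top1 peak, and 5.0% of these lay within 800 bases of it. Of the 133 whose nearest Top2 peak overlapped no Top1 peak, 13.5% did. The medians of both sets were close, 1814.5 and 1755 bases.

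**Figure D3:**
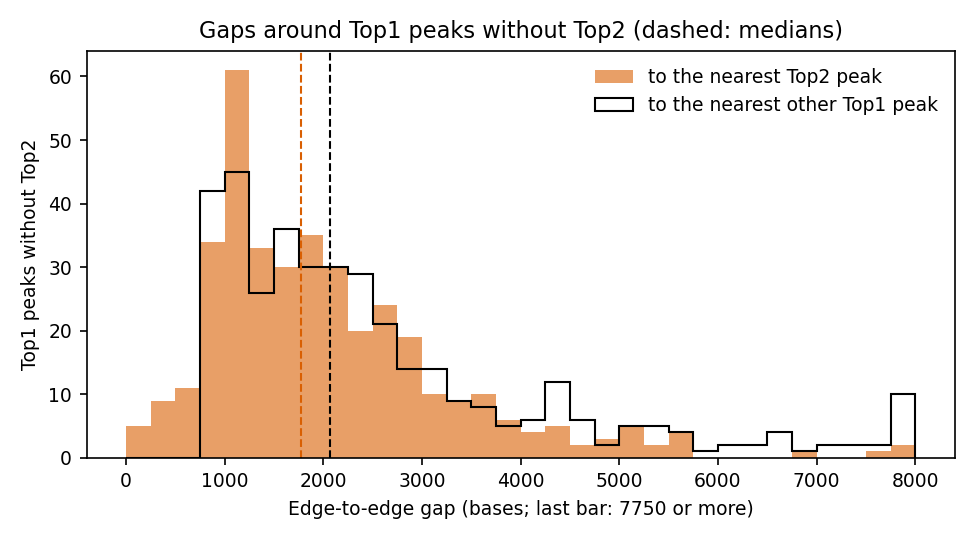
Number of Top1-only peaks (vertical axis) by edge-to-edge gap in bases (horizontal axis) to the nearest Top2 peak (orange bars) and to the nearest other Top1 peak (black outline), with medians dashed at 1775 and 2064 bases. Few gaps to Top2 are short, and no gap to another Top1 peak is under 802 bases.

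Distance to Top2 did not sort the Top1-only peaks by strength or width. The 59 peaks within 1000 bases of Top2 had a median fold enrichment of 1.29 (quartiles 1.24 and 1.37) and a median width of 361 bases. The 64 peaks more than 3000 bases away had a median of 1.29 (quartiles 1.23 and 1.36) and 388 bases. Over all 375, Spearman's rho with the gap was -0.013 for fold enrichment and 0.012 for width. The Top2 peaks nearest to Top1-only peaks also resembled the Top2 list: their median fold enrichment was 1.53 (quartiles 1.37 and 1.81) against 1.57 (quartiles 1.39 and 1.84) for all Top2 peaks, and 64.5% of them overlapped a Top1 peak against 66.0% of all.

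The peaks farthest from Top2 included peaks at chromosome ends. The largest gap, 11544 bases, belonged to a peak at 422 to 840 on chromosome VIII, at the very left end, with a fold enrichment of 1.44. The second, 9275 bases, belonged to the last peak of X, at 734165 to 734512 (1.397-fold). The third lay away from the ends, 195 kb from the nearer one, on XVI at 745183 to 745413 (1.42-fold), 7686 bases from Top2. Beyond 5000 bases there were 14 such peaks in all.

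Between consecutive Top2 peaks the 12 chromosomes held 2358 Top2-free stretches, and 13.5% of them held a Top1-only peak. These had a median length of 5798.5 bases (quartiles 4267.5 and 8233), against 2306.5 (quartiles 1492 and 3623.5) for the 2040 that held none. A single Top1-only peak lay in 275 stretches, 36 held 2, 6 held 3 and 1 held 4, and 6 peaks lay beyond the first or last Top2 peak of their chromosome. Long stretches offer more room for a peak, so the number per 100 kb of stretch is also given. It was 0.435 in stretches of up to 2000 bases, 1.88 from 2000 to 3000, 3.36 from 3000 to 4000, 6.26 from 4000 to 6000, 6.05 from 6000 to 8000 and 7.79 above 8000. In stretches over 8000 bases, 88 of 145 (60.7%, exact interval 52.2% to 68.7%) held at least 1. The number per 100 kb does not remove the effect of room. By the overlap rule a Top1-only peak must lie wholly inside its stretch, so a short stretch more easily makes a Top1 peak an overlapping one. The spacing of at least 802 bases between Top1 peaks also leaves little room in short stretches where Top1 peaks overlap the flanking Top2 peaks. The part of either in the trend was not tested.

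**Figure D4:**
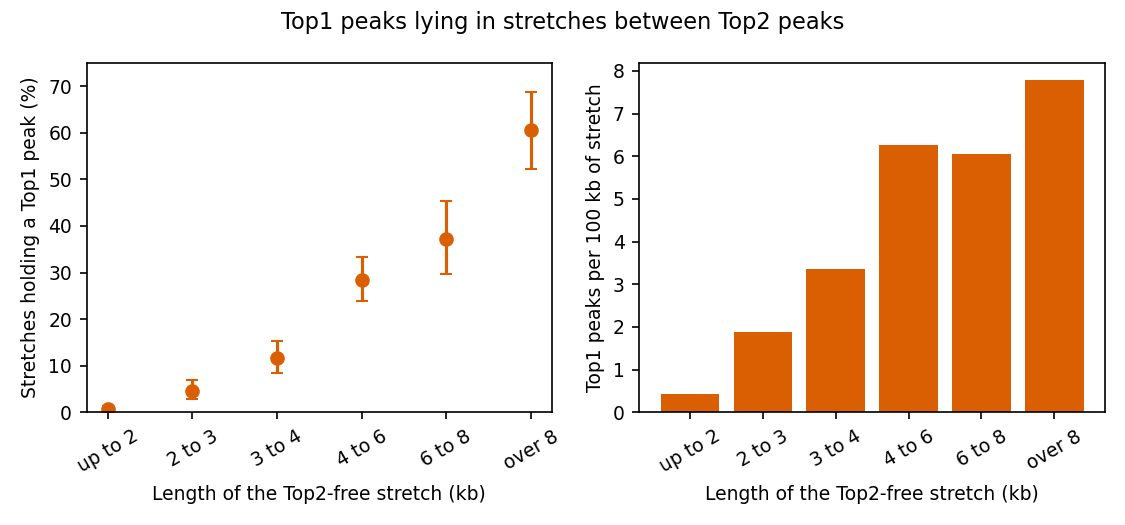
Stretches between consecutive Top2 peaks by length in kb (horizontal axes): the percent holding at least 1 Top1-only peak with 95% exact binomial intervals (left) and Top1-only peaks per 100 kb of stretch (right). Both are lowest up to 2 kb (0.598% and 0.435) and highest over 8 kb (60.7% and 7.79).

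In the 275 stretches with a single Top1-only peak, the nearer gap made up a median of 35.0% of both gaps together (quartiles 24.4% and 42.6%). The nearer gap cannot exceed 50%, which is the exact middle. With both gaps together cut into 3 equal parts, 154 of the 275 peaks (56%) lay in the middle part. No expected share was computed. The spacing of at least 802 bases between Top1 peaks can keep Top1-only peaks off an edge where the flanking Top2 peak overlaps Top1. Its part in this share was not tested. The gap to the farther flanking Top2 peak had a median of 3322 bases.

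Top1-only peaks were scattered among the other Top1 peaks and showed little tendency to follow each other. The next Top1 peak along the chromosome was also Top1-only in 74 of 371 cases after a Top1-only peak (19.9%). After an overlapping peak it was Top1-only in 296 of 1541 cases (19.2%), and both values lay close to the 19.5% of all Top1 peaks. The gap to the nearest other Top1 peak had a median of 2064 bases (quartiles 1302.5 and 3135) for Top1-only peaks and 1945 (quartiles 1287 and 3038) for overlapping ones. Measured between centres the sign of this difference turned, from 119 to -165 bases (Top1-only minus overlapping). From one Top1-only peak to the nearest other, the median gap was 8819 bases (quartiles 4226 and 17635.5).

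As a run of consecutive Top1 peaks, 243 Top1-only peaks stood alone, 46 runs held 2, 8 held 3 and 4 held 4, the longest. The tightest of these 4 lay on chromosome X between 428250 and 434211, with fold enrichments of 1.26, 1.20, 1.28 and 1.32. The run on V from 415694 to 429459 held values between 1.29 and 1.32. The other two were spread out. The run on XIII from 661948 to 697709 had fold enrichments of 1.28, 1.24, 1.49 and 1.21, and that on XV from 11829 to 39121, near the left end, had values between 1.28 and 1.44. None of these 16 peaks reached 1.5-fold, and only 22 of all 375 Top1-only peaks (5.87%) did.

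The longest stretch between 2 consecutive Top1-only peaks, named after its length was seen, was 261 kb on chromosome XVI, from 465511 to 726558. All 53 Top1 peaks in it overlapped Top2. Top1 peaks were as dense there as on the rest of the chromosome (20.3 against 20.5 per 100 kb), with a median width of 665 against 376 bases, and Top2 peaks were denser (28.3 against 23.6 per 100 kb). Outside it, 29 of 139 Top1 peaks on XVI (20.9%) were Top1-only, close to the 19.5% of all 12 chromosomes. Setting aside a stretch picked for holding no Top1-only peak raises the share of the rest by construction. It also leaves all Top1-only peaks of XVI, with a median width of 323 bases, in the rest. The differences in width and in Top2 density thus carry the same limit. The second longest, on XIV from 161399 to 300909 (140 kb), held 29 Top1 peaks, and the rest of XIV had 20.2% Top1-only. Median Top1 width inside and outside was 501 and 483 bases there, and 400 and 455 for the third longest, on X. Top2 peaks were denser inside both (29.4 against 23.3 and 25.1 against 22.5 per 100 kb). At the other extreme, the window of 50 kb with the most Top1-only peaks held 7 among 18 Top1 peaks, on VIII between 83957 and 132930.

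Along the chromosomes, the share of Top1-only peaks varied little between bins, and end windows of different sizes did not share a direction. Over 10 equal bins from the left to the right end, the share of Top1 peaks that were Top1-only ran from 15.9% in bin 6 to 23.3% in bin 1, and the exact interval of each bin held the overall 19.5%. The share was 23.3% in the leftmost and 21.6% in the rightmost bin. The median distance to the nearer end was 204 kb for Top1-only peaks and 232 kb for overlapping peaks. Within 20 kb of an end, 13 of 72 Top1 peaks were Top1-only (18.1%, exact interval 9.98% to 28.9%), against 19.5% of the 1852 farther in. At 10 kb the values were 21.2% (7 of 33) and 19.5%, and at 50 kb 18.1% (33 of 182) and 19.6%. At 100 kb they were 22.8% (90 of 395, interval 18.7% to 27.2%) and 18.6% (285 of 1529). The intervals at 10, 20 and 50 kb held the value farther in, and that at 100 kb lay just above it, without a test. The right end was taken as the last peak of either list, so a peak that is itself the last lies at distance 0. The first such Top1-only peak in chromosome order was on VII at 1048679 to 1048960, with a fold enrichment of 1.41.

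**Figure D5:**
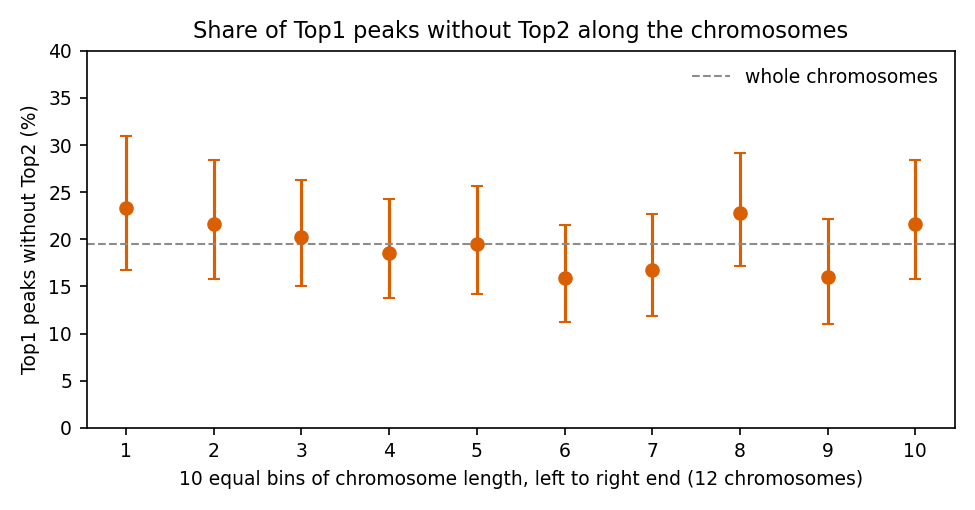
Percent of Top1 peaks that are Top1-only (vertical axis) in each of 10 equal bins of the chromosome length from left to right (horizontal axis), 12 chromosomes together, with 95% exact binomial intervals and the overall 19.5% dashed. The values range from 15.9% to 23.3%, and every interval crosses the dashed line.

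The Top2 recovery of whole chromosomes was also measured in 3 other WT cultures at 3 h and 30 °C, which the choice of peaks did not use. In these, S288c cells had been mixed in before ChIP, and the deposited counts give reads per SK1 chromosome (1093634 to 3607968 SK1 reads per library). The log2 ratio of a chromosome's ChIP share to its input share was lowest on VIII, at -0.077 ± 0.010 (SD, n = 3), with single values of -0.076, -0.088 and -0.068. VIII is also the chromosome with the highest share of Top1-only peaks. The ratio was below 0 in 3 of 3 cultures on X and XIV too, and XIV, with a mean of -0.056 ± 0.023 (SD, n = 3), had one of the lowest shares (15.9%). It was highest on V, at 0.059 ± 0.0097 (SD, n = 3), where 17.9% of Top1 peaks were Top1-only. XVI, with the lowest share, stood at 0.040 ± 0.015 (SD, n = 3), but XI, with the second highest share of 24%, stood at 0.052 ± 0.020 (SD, n = 3).

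Across the 12 chromosomes there was no steady relation between the 2 measures. Pearson's r was -0.25 and Spearman's rho -0.021, and without VIII and XVI, whose shares lie farthest from the median, r was 0.44 over 10 chromosomes. The sign of r thus turned with that pair left out together, and the share of XI lay almost as far from the median as that of XVI. The points share their libraries, and no test was made.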

How the data were processed

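Top1 and Top2 peaks were taken from 2 deposited broad peak lists, each combining 2 replicates per the series design text. MACS2 2.1.1 and Bowtie are named, without roles, in the submitters' processing notes. The calling thresholds are not given in the sources used here, and the lists carry different unexplained setting marks. Fold enrichment (a ratio of ChIP over input), −log10 q-values and a display score are the authors' deposited values. Only the fold enrichment and q-values were used, to describe peaks within a list and, in alternative settings, as cuts on the lists before overlap was judged. Spike-in values are read counts that the authors deposited for every chromosome of a combined S288c and SK1 reference, in 6 libraries. All 32 counts were even in both libraries of replicate 1. Whether each fragment was counted through both of its ends was not tested, and the labels speak of single-end reads.

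Sharing 1 base or more counted as overlap. Gaps are bases between edges. Log2 ratios of chromosome shares were computed per culture from ChIP and input of the same replicate number. Shares carry 95% exact Clopper-Pearson intervals, which cover counting error only. Overlap and gap computations were tested on simulated intervals, with 0 wrong of 900. Python 3.11.15, numpy 2.4.6, pandas 2.3.3, scipy 1.17.1 and matplotlib 3.10.9 were used.

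Named peaks followed a rule: the 5 strongest, 3 widest, 3 farthest from Top2, 3 on each side of the overlap threshold, the one nearest to an end, and the longest runs. The peaks and the rule were chosen with earlier results of these data known. The expression table gives no positions and was not used here. Sequence, genes and centromeres of the SK1 assembly were not analysed here.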

Additional observations from a re-analysis of the deposited data

How the results depend on the processing

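Of 161 recomputed values, 139 stayed within the interval of the reported value (or, for a count, within 1.5 times of it). The interval was exact binomial for shares and came from ranks for medians. For r across chromosomes it was the spread of the single cultures. For each result on peaks, 12 of the alternatives left out 1 chromosome. Those keep most of the same peaks, so staying close to the reported value is largely built in. The number of Top1-only peaks depended on the thresholds. It was 929 (48.3%) when only a reciprocal overlap of at least 50% counted as shared, 873 (45.4%) against Top2 peaks of at least 1.5-fold, 163 (14.3%) among Top1 peaks of at least 1.3-fold and 229 (17.3%) with a −log10 q-value of at least 3 in both lists. In the same 4 settings the difference in median width was -98, -251, -286.5 and -303.5 bases, against -174 as reported. Without chromosome IV it was -193. The difference in median fold enrichment, -0.046 as reported, was -0.060 against the stronger Top2 peaks, -0.012 among the stronger Top1 peaks and -0.016 with the stricter q-value. The difference in the gap to the nearest Top1 peak, 119 bases as reported, was 467 with the stricter q-value and -165 between centres. The median gap to Top2 was 0 under reciprocal overlap, 2764 against the stronger Top2 peaks and 2347.5 between centres. The median fold enrichment of the nearest Top2 peak differed from that of all Top2 peaks by -0.032 as reported and by 0.019 under reciprocal overlap. The difference within 20 kb of the ends had the opposite sign in 4 of 22 alternatives, all within its counting spread. These alternatives included windows of 10 and 50 kb but not 100 kb. The 100 kb window held 24% of Top1-only and 19.7% of overlapping peaks, also the opposite sign and a wider difference. Counting gaps of up to 100 or 250 bases as shared left 374 and 370 peaks.

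With each culture left out, r across chromosomes ran from -0.29 to -0.18, and scaling to the spike-in only shifts all chromosomes together. The percentages, and the numbers with chromosomes left out, were alternatives chosen after seeing the data. No paired analysis was possible because each peak list pools its replicates and no test was made.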

Other observations

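On the 4 chromosomes kept out of the set, 74 of 310 Top1 peaks shared no base with a Top2 peak (23.9%, exact interval 19.2% to 29.0%), against 19.5% on the other 12. The values were 4 of 24 on I, 8 of 48 on III (16.7% on both), 15 of 52 on VI (28.8%) and 47 of 186 on XII (25.3%), the chromosome that carries the ribosomal DNA. Over these 4 chromosomes the median width was 343.5 bases for Top1-only peaks and 578 for overlapping peaks, and the median fold enrichment 1.298 and 1.326.

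In the other direction, 806 of the 2370 Top2 peaks on the 12 chromosomes (34.0%) shared no base with a Top1 peak. Their median gap to the nearest Top1 peak was 2192.5 bases (quartiles 1396.5 and 3682.75), and for 173 of them (21.5%) that nearest Top1 peak was Top1-only.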
